A study of Mus musculus with 6 samples.

Results

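Whole B16-F10 melanomas were compared for 9 transcription factor genes that set the fate of effector and helper lymphocytes. The genes, *Tbx21*, *Eomes*, *Gata3*, *Bcl6*, *Prdm1*, *Runx3*, *Id2*, *Id3* and *Zeb2*, were taken by their symbols from the deposited expression table, where all 9 of 9 were found among 21358 entries. All 9 also passed the minimum level for testing, a mean of 0.1 FPKM, the fragments of a library that map to a gene, corrected for its exon length and for all mapped fragments. RNA was sequenced from 6 tumors, 1 library each, with 3 tumors from mice given adoptive cell transfer (ACT) with IL-2 and 3 from mice given ACT with NKTR-214, a pegylated prodrug of IL-2 that releases active cytokine slowly. The comparison asks how the transcriptional state of the treated tumors differed between these cytokine supports.

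Both groups were C57BL/6 females of 6 to 8 weeks that carried B16-F10, a murine melanoma line expressing gp100, under the skin. All had been irradiated with 500 cGy to the whole body and, once tumors reached at least 150 mm3, had received 2000000 splenocytes of pmel-1 donors of 5 to 7 weeks. The CD8 T cells of pmel-1 mice bear a transgenic receptor for gp100, and the splenocytes had been activated with gp100 peptide in culture. ACT + IL-2 mice were given recombinant human IL-2 daily for 3 days (0.4 mg/kg), and ACT + NKTR-214 mice a single dose of NKTR-214 at 0.8 mg/kg, repeated in both after 9 days. Tumors were taken on day 12. The library holds tumor, stromal and host immune cells as well as transferred cells, so that no value belongs to one cell type, and no group without cytokine was analysed here.

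T-bet (*Tbx21*) and Eomes are T-box factors that drive the cytotoxic and interferon-γ programs of CD8 T and NK cells, with Eomes also linked to memory, whereas GATA3 directs type 2 helper cells and is needed by T cells more widely. Blimp-1 (*Prdm1*) and Bcl6 repress each other and favour terminal effector against follicular helper or memory fates, and Runx3 establishes the CD8 lineage. Id2 and Id3 bind E proteins and keep them from DNA, and ZEB2 acts with T-bet in terminal effector cells, but *Id2*, *Id3*, *Zeb2*, *Bcl6* and *Prdm1* are also transcribed in myeloid, stromal or other cells.

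The start regions of these genes are shown first, since several of the genes moved together in the comparison that follows. RefSeq gives the 250 bases before each start on build GRCm38.p6, and the windows printed, which hold no exon annotated by GENCODE, read 5′ to 3′ on the strand of the gene, with capitals for matches to a motif. Searches on both strands covered AGGTGT (T-box), AGATAA (for GATA factors), TGTGGT (RUNX), TTCNNNGAA (the STAT element called GAS), CAGGTG (the E-box bound by ZEB and E proteins) and GTGAAAG (Blimp-1 and IRF type). The T-box and E-box words share letters and can overlap. *Tbx21*, *Eomes* and *Prdm1* are shown as genes that were higher in ACT + NKTR-214, and the inner start of *Bcl6* as the gene with the most STAT-type matches.
Tbx21, chr11:97115332-97115581, minus strand: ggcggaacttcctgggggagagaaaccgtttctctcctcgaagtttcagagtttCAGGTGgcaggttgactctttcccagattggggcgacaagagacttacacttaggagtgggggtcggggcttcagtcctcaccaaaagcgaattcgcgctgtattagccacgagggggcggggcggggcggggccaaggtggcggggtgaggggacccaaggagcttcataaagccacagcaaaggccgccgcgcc
Eomes, chr9:118477939-118478188, plus strand: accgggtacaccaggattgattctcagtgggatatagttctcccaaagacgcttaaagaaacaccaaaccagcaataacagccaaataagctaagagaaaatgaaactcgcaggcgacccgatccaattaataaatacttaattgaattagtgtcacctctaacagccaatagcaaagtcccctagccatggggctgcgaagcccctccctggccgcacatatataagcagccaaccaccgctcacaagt
Prdm1, chr10:44458749-44458998, minus strand: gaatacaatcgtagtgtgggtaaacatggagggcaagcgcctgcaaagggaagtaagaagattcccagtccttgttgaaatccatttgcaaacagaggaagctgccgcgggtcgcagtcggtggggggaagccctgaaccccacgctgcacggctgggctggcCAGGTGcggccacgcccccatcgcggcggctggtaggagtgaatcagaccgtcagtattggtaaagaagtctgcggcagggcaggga
Bcl6, chr16:23981284-23981533, minus strand: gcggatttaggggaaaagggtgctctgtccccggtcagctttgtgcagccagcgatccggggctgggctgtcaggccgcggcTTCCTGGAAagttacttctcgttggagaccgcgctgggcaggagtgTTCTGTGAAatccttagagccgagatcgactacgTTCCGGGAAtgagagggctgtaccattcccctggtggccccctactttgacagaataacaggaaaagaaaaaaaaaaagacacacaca

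The *Tbx21* and *Prdm1* windows each held 1 E-box word, which 16.8% of 19293 promoter windows held. In *Bcl6* the inner window held 3 GAS words, beginning at bases -168, -122 and -88 from the start, and its outer window, chr16:23988853-23989102, held 1 at -118, against 6.69% of promoters with any. A pair of overlapping *Zeb2* windows, chr2:45113280-45113529 and chr2:45113254-45113503 on the minus strand, shared 1 GAS word, at -147 and -173 from their starts. The distal *Runx3* window, chr4:135120395-135120644 on the plus strand, held 2 RUNX words at -134 and -126, a word present in 11.8% of promoters, and 1 E-box at -233. No T-box, GATA or Blimp-1 type word lay in the windows of any of the 9 genes, and these words were in 11.0%, 8.52% and 3.30% of promoters. A match is a run of letters and no evidence of binding, and its absence concerns these 250 bases alone.

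Higher levels in ACT + NKTR-214 were found for 6 of the 9 genes, *Tbx21*, *Runx3*, *Eomes*, *Gata3*, *Prdm1* and *Id2*, by limma over all 14172 tested genes with Benjamini-Hochberg adjustment at 0.05. Over all tested genes 20.7% were called higher. No regulator was called lower by limma or lower at an unadjusted p under 0.05, beside 8.28% of tested genes called lower. That background of 1173 genes depended on single tumors and on scaling, being 1996 without ACT + IL-2 replicate 2, 636 without ACT + IL-2 replicate 3, 680 without ACT + NKTR-214 replicate 2, 4525 after quantile normalization and 3497 after scaling to a common 75th percentile. The groups did not overlap, all ACT + NKTR-214 tumors being above all ACT + IL-2 tumors, for 7 of the 9, as for 27.1% of tested genes. The median log2 fold change was 1.24 over the 9 genes and 0.05 over all tested genes. With an ordinary variance for each gene, in place of limma's shared one, 1 of the 6 calls remained, *Eomes*, where 0.713% of tested genes were called higher in that fit.

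**Figure D1:**
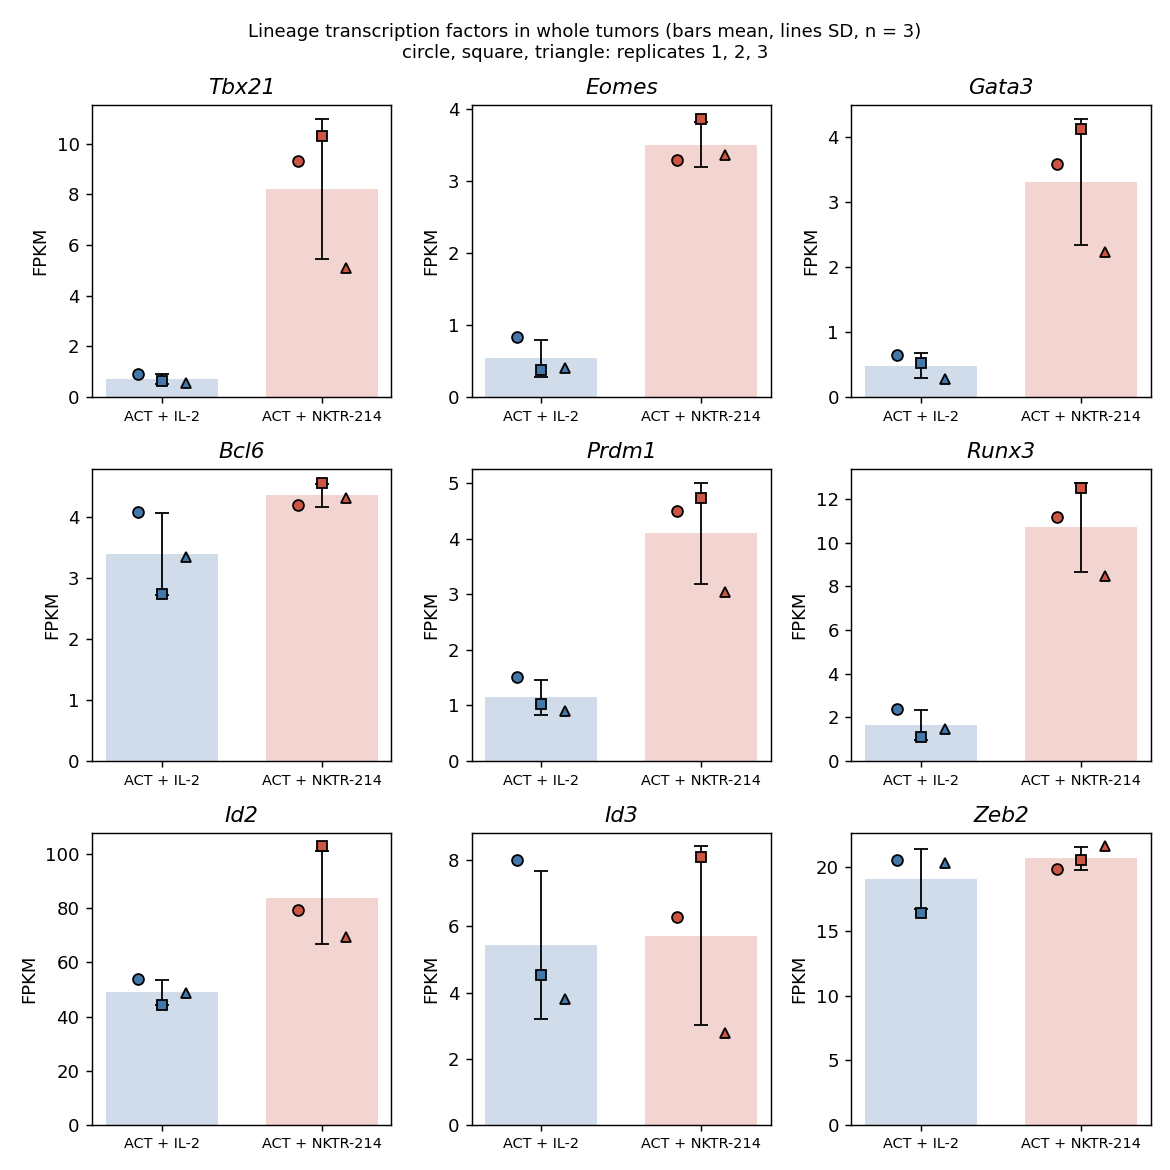
FPKM of each regulator on linear axes from 0, with bars for group means, lines for SD and 1 point per tumor (3 per group). The groups were apart for 7 genes and overlapped for *Id3* and *Zeb2*.

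Among the type 1 regulators, *Tbx21* (chromosome 11, 97098071 to 97115331, minus strand) measured 0.920 (replicate 1), 0.634 (replicate 2) and 0.562 (replicate 3) FPKM with ACT + IL-2, and 9.31, 10.3 and 5.09 FPKM in the same order with ACT + NKTR-214. Even the lowest ACT + NKTR-214 tumor, replicate 3, was well above the highest ACT + IL-2 tumor, replicate 1. The mean rose from 0.705 ± 0.189 to 8.23 ± 2.77 FPKM (SD, n = 3 each), and the log2 fold change of FPKM + 1 was 2.39 (SE, the standard error, 0.20; adjusted p = 5.06e-07, limma). This change stood at percentile 99.0 of all tested genes. In bulk tumor RNA, fewer cells of a type and less RNA per cell cannot be told apart, and this holds for every level given here.

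*Eomes* (chromosome 9, 118478212 to 118486132, plus strand) measured 0.836, 0.377 and 0.3995 FPKM in the ACT + IL-2 tumors and 3.30, 3.87 and 3.36 FPKM in the ACT + NKTR-214 tumors, in the order of replicates. Again no tumor of one group reached the other, and the ACT + NKTR-214 tumors lay close together. Unlike *Tbx21*, *Eomes* was not lowest in ACT + NKTR-214 replicate 3. The mean rose from 0.537 ± 0.259 to 3.51 ± 0.314 FPKM, a log2 fold change of 1.56 (SE 0.14, adjusted p = 1.03e-06, limma), or 2.57 with a pseudocount of 0.1.

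For *Runx3*, the CD8 lineage factor (chromosome 4, 135120652 to 135177990, plus strand), the ACT + IL-2 tumors gave 2.39, 1.09 and 1.45 FPKM and the ACT + NKTR-214 tumors 11.2, 12.5 and 8.47 FPKM. The groups were far apart, with replicate 1 the highest ACT + IL-2 tumor and replicate 3 the lowest ACT + NKTR-214 tumor. The mean rose from 1.65 ± 0.673 to 10.7 ± 2.05 FPKM, with a log2 fold change of 2.16 (SE 0.19, adjusted p = 8.7e-07, limma). On this log2 scale only *Tbx21* changed more among the 9 regulators, whereas by the ratio of mean FPKM *Runx3* (6.51) was close to *Eomes* (6.53) and *Gata3* (6.83).

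*Gata3*, the type 2 helper regulator (chromosome 2, 9857078 to 9890034, minus strand), measured 0.653, 0.517 and 0.283 FPKM with ACT + IL-2 and 3.58, 4.11 and 2.23 FPKM with ACT + NKTR-214. The groups did not overlap, and replicate 3 was the lowest in each. The mean rose from 0.484 ± 0.187 to 3.31 ± 0.972 FPKM, a log2 fold change of 1.52 (SE 0.17, adjusted p = 5.72e-06, limma), or 2.56 with a pseudocount of 0.1. Of its exon bases, 5.83% are shared with the annotated transcripts *9230102O04Rik* and *Gm13256*, the second on the other strand, and strand use in counting is not given in the sources used here.

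*Prdm1*, which encodes Blimp-1 (chromosome 10, 44437177 to 44528501, minus strand), measured 1.51, 1.02 and 0.902 FPKM in ACT + IL-2 and 4.50, 4.74 and 3.05 FPKM in ACT + NKTR-214. The lowest ACT + NKTR-214 tumor was above the highest ACT + IL-2 tumor. The mean rose from 1.14 ± 0.322 to 4.09 ± 0.915 FPKM, a log2 fold change of 1.24 (SE 0.17, adjusted p = 4.02e-05, limma).

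Its antagonist *Bcl6* (chromosome 16, 23965052 to 23988852, minus strand) measured 4.08, 2.74 and 3.34 FPKM in ACT + IL-2 and 4.20, 4.57 and 4.32 FPKM in ACT + NKTR-214. All ACT + NKTR-214 tumors were above all ACT + IL-2 tumors, but the margin between the closest tumors, replicate 1 of each group, was slight. The means were 3.39 ± 0.673 and 4.36 ± 0.190 FPKM. The log2 fold change of 0.30 (95% interval -0.03 to 0.63, adjusted p = 0.173, limma) did not pass the threshold, and it was 0.19 without ACT + IL-2 replicate 2 and 0.12 after quantile normalization.

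Of the inhibitors of E proteins, *Id2* (chromosome 12, 25093799 to 25097140, minus strand) measured 53.8, 44.4 and 48.7 FPKM in ACT + IL-2 and 79.3, 103 and 69.3 FPKM in ACT + NKTR-214. The groups did not overlap, and *Id2* was the most abundant of the 9 genes in every tumor. The mean rose from 49.0 ± 4.72 to 83.8 ± 17.2 FPKM, a log2 fold change of 0.75 (SE 0.17, adjusted p = 0.00362, limma).

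Its relative *Id3* (chromosome 4, 136143497 to 136145755, plus strand) measured 8.003, 4.54 and 3.81 FPKM in ACT + IL-2 and 6.29, 8.09 and 2.78 FPKM in ACT + NKTR-214. The groups overlapped fully, and the highest and the lowest value of the series both came from ACT + NKTR-214 tumors. The means were 5.45 ± 2.24 and 5.72 ± 2.70 FPKM, and *Id3* had the widest spread of the 9 genes within ACT + NKTR-214 relative to its mean. The log2 fold change was 0.02 (95% interval -0.57 to 0.61, adjusted p = 0.967, limma), and its sign became negative, to -0.05 and -0.14, under scaling to a common 75th percentile and quantile normalization. With 1 tumor left out it was 0.29, -0.06 and -0.16 for replicates 1, 2 and 3 of ACT + IL-2 in turn, and -0.08, -0.24 and 0.39 for those of ACT + NKTR-214. The interval leaves room for a change in either direction.

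*Zeb2* (chromosome 2, 44983632 to 45117395, minus strand) measured 20.6, 16.4 and 20.3 FPKM in ACT + IL-2 and 19.8, 20.6 and 21.6 FPKM in ACT + NKTR-214. The groups overlapped, with ACT + IL-2 replicate 2 apart on the low side. The means were 19.1 ± 2.32 and 20.7 ± 0.875 FPKM, with a log2 fold change of 0.12 (95% interval -0.19 to 0.42, adjusted p = 0.592, limma), or 0.02 without ACT + IL-2 replicate 2, 0.04 after 75th percentile scaling and 0.03 after quantile normalization. *Zeb2* shares 3.30% of its exon bases with *Zeb2os*, *Gm27761* and *Mir5129*.

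**Figure D2:**
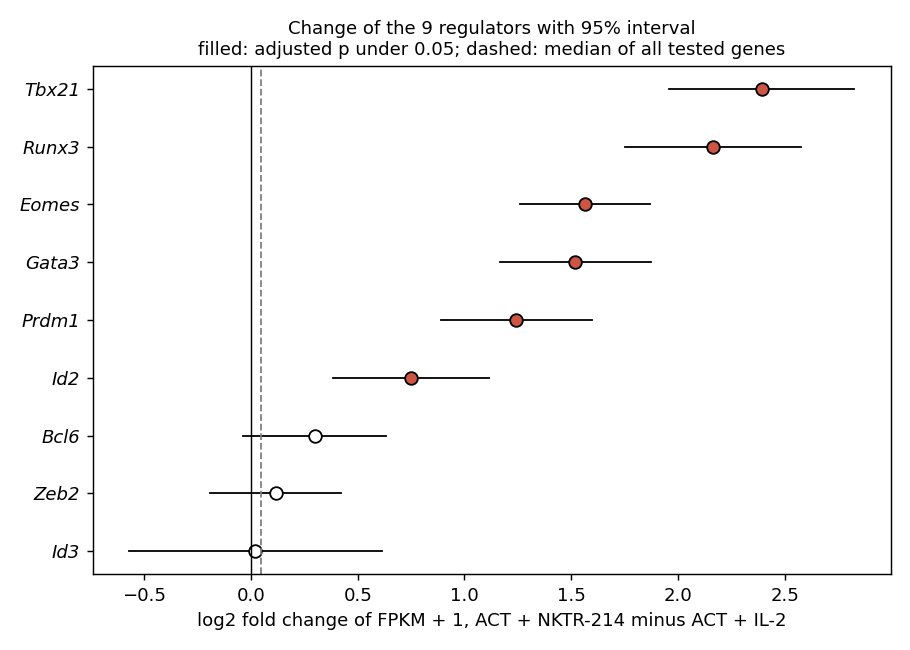
Log2 fold change of FPKM + 1 with its 95% interval for each regulator, filled where the adjusted p was under 0.05, beside the median of all tested genes (dashed, 0.05). *Tbx21* (2.39) and *Runx3* (2.16) led, and the intervals of *Bcl6*, *Zeb2* and *Id3* included 0.

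FPKM is per exon length, so that the levels can be ranked. In ACT + IL-2 the order of mean FPKM was *Id2* (49.0), *Zeb2* (19.1), *Id3* (5.45), *Bcl6* (3.39), *Runx3* (1.65), *Prdm1* (1.14), *Tbx21* (0.705), *Eomes* (0.537) and *Gata3* (0.484). Of neighbours in this order, the ranges over tumors overlapped for *Id3* with *Bcl6* and for each neighbouring pair from *Runx3* down to *Gata3*, 5 pairs in all. In ACT + NKTR-214 the order was *Id2* (83.8), *Zeb2* (20.7), *Runx3* (10.7), *Tbx21* (8.23), *Id3* (5.72), *Bcl6* (4.36), *Prdm1* (4.09), *Eomes* (3.51) and *Gata3* (3.31), with overlap in 6 neighbouring pairs, all those from *Runx3* down. *Id2* and *Zeb2* stood apart from their neighbours in both groups. *Tbx21* went from rank 7 to rank 4 and *Runx3* from rank 5 to rank 3. Among all entries, the mean FPKM of *Tbx21* was at percentile 45.5 in ACT + IL-2 and 71.1 in ACT + NKTR-214, while that of *Zeb2* was at 87.8 and 88.0.

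Low levels rest on few reads. Low FPKM values tended to lie at whole multiples of the value of 1 read per kilobase, from which libraries of 20900000 to 24700000 reads were estimated. Of low values, 31.2% to 33.9% came within 0.05 of a whole read, and most did not. The step was itself read from low values, so the depth is an estimate, not a recovered count. By it, *Tbx21* had about 55, 36 and 29 reads in the ACT + IL-2 tumors and 571, 624 and 300 in the ACT + NKTR-214 tumors, and *Gata3* about 62, 47 and 24 against 352, 399 and 210. *Zeb2* had about 7485 reads or more in every tumor.

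The tumors of a group ranked alike for most regulators. ACT + IL-2 replicate 1 had the highest ACT + IL-2 value for 9 of the 9 genes, ACT + NKTR-214 replicate 2 the highest ACT + NKTR-214 value for 8, and ACT + NKTR-214 replicate 3 the lowest for 6. Over all tested genes these shares were 55.4%, 39.4% and 57.8%, and the same tumors had the highest and lowest summed FPKM of their groups. They were also highest and lowest for the CD3 genes, which encode the invariant chains of the T cell receptor. The summed FPKM of *Cd3d*, *Cd3e* and *Cd3g* was 13.5, 5.22 and 5.59 in the ACT + IL-2 tumors and 141, 160 and 73.4 in the ACT + NKTR-214 tumors, a ratio of means of 15.4.

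Each regulator was also set against the CD3 sum of its own tumor. By this measure no regulator was higher in ACT + NKTR-214, and the mean ratio was lower for 9 of the 9 genes, with groups that did not overlap for 8. Of all tested genes 96.5% were lower without overlap by this measure, since the CD3 sum rose so far, and nothing is read from the count of 8. *Tbx21* was the regulator whose groups overlapped. Its ratio was 0.0680, 0.121 and 0.101 in ACT + IL-2 and 0.0659, 0.0645 and 0.0693 in ACT + NKTR-214. The ACT + NKTR-214 tumors lay within a narrow band that took in ACT + IL-2 replicate 1, and the log2 difference was -0.50 (exact two-sided permutation p = 0.2, adjusted p = 0.2 over 9 genes, n = 3 each), or -0.31 without ACT + IL-2 replicate 2.

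The ratio of *Eomes* was 0.0618, 0.0721 and 0.0715 in ACT + IL-2 and 0.0234, 0.0243 and 0.0458 in ACT + NKTR-214, a log2 difference of -1.21. That of *Gata3* differed by -1.20 and that of *Runx3* by -1.25, also without overlap. *Prdm1* differed by -2.16. Since all share the denominator, regulators that changed less in FPKM differed more against CD3, with log2 differences of -3.25 for *Id2*, -3.63 for *Bcl6*, -3.89 for *Zeb2* and -4.00 for *Id3*. For each of these 8 genes the exact two-sided permutation p was 0.1 (adjusted p = 0.1125, n = 3 each), the smallest that 3 against 3 tumors allow, so that none could pass 0.05. With *Cd8a* as the denominator the *Tbx21* groups no longer overlapped, at 0.237, 0.273 and 0.325 against 0.219, 0.218 and 0.221. The log2 difference was -0.33 (exact permutation p = 0.1, n = 3 each). No other regulator overlapped by that measure either. *Cd8a* itself rose 14.2 times by the ratio of means, and the share of all tested genes without overlap was not computed. Nothing is read from this separation. The ratio does not say how much of a transcript T cells made, since other cells may add to it.

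**Figure D3:**
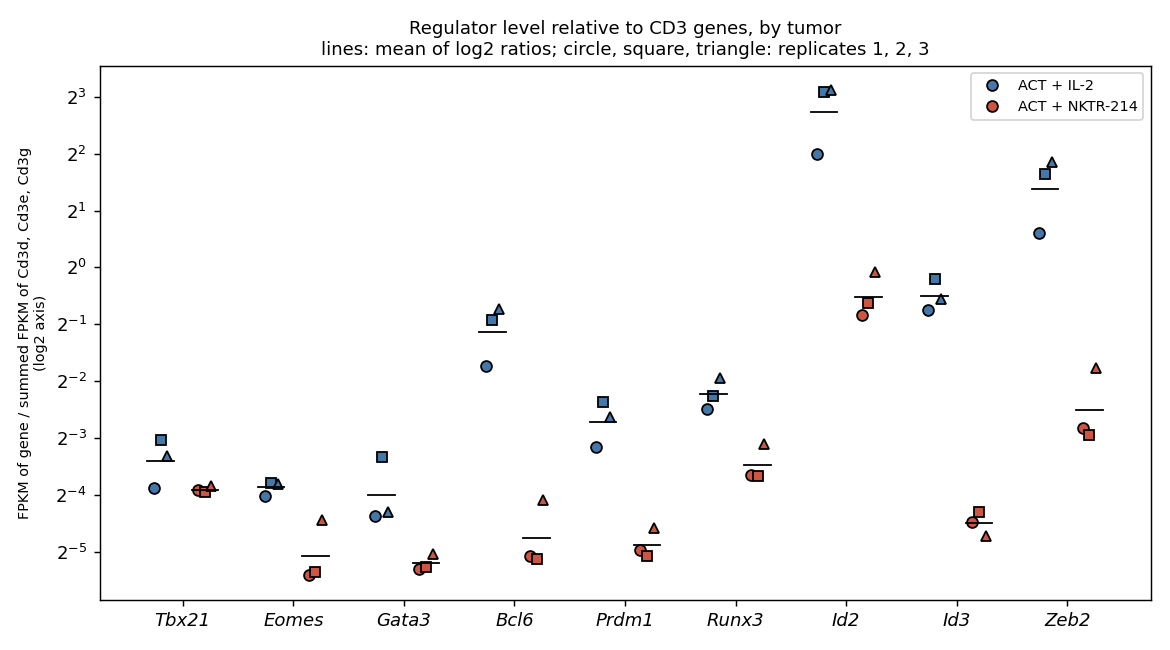
FPKM of each regulator divided by the summed FPKM of *Cd3d*, *Cd3e* and *Cd3g* in the same tumor, on a log2 axis, with 1 point per tumor and lines for the mean of log2 ratios (3 tumors per group). The groups overlap for *Tbx21* alone, and the gap is widest for *Id3* (-4.00) and *Zeb2* (-3.89).

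Ratios between regulators described as opposing or partly redundant were compared in 4 pairs. *Prdm1* over *Bcl6* was 0.369, 0.371 and 0.270 in ACT + IL-2 and 1.07, 1.04 and 0.705 in ACT + NKTR-214. *Bcl6* was thus the more abundant transcript in every ACT + IL-2 tumor, whereas the transcripts were near parity in ACT + NKTR-214 replicates 1 and 2. The log2 difference of 1.47 was the largest of the 4 (exact two-sided permutation p = 0.1, adjusted p = 0.2 over 4 pairs, n = 3 each).

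*Tbx21* over *Gata3* was 1.41, 1.23 and 1.99 in ACT + IL-2 and 2.60, 2.50 and 2.28 in ACT + NKTR-214, without overlap (log2 difference 0.70, exact permutation p = 0.1, adjusted p = 0.2, n = 3 each). *Tbx21* exceeded *Gata3* in all 6 tumors. *Tbx21* over *Eomes* was 1.10, 1.68 and 1.41 against 2.82, 2.66 and 1.51, with ACT + NKTR-214 replicate 3 inside the range of ACT + IL-2 (log2 difference 0.71, exact permutation p = 0.2, adjusted p = 0.267, n = 3 each). *Id2* over *Id3* was 6.72, 9.79 and 12.8 against 12.6, 12.7 and 24.9, also overlapping (log2 difference 0.75, exact permutation p = 0.3, adjusted p = 0.3, n = 3 each), and the difference was 0.42 without ACT + NKTR-214 replicate 3. No pair could pass 0.05 in this design.

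**Figure D4:**
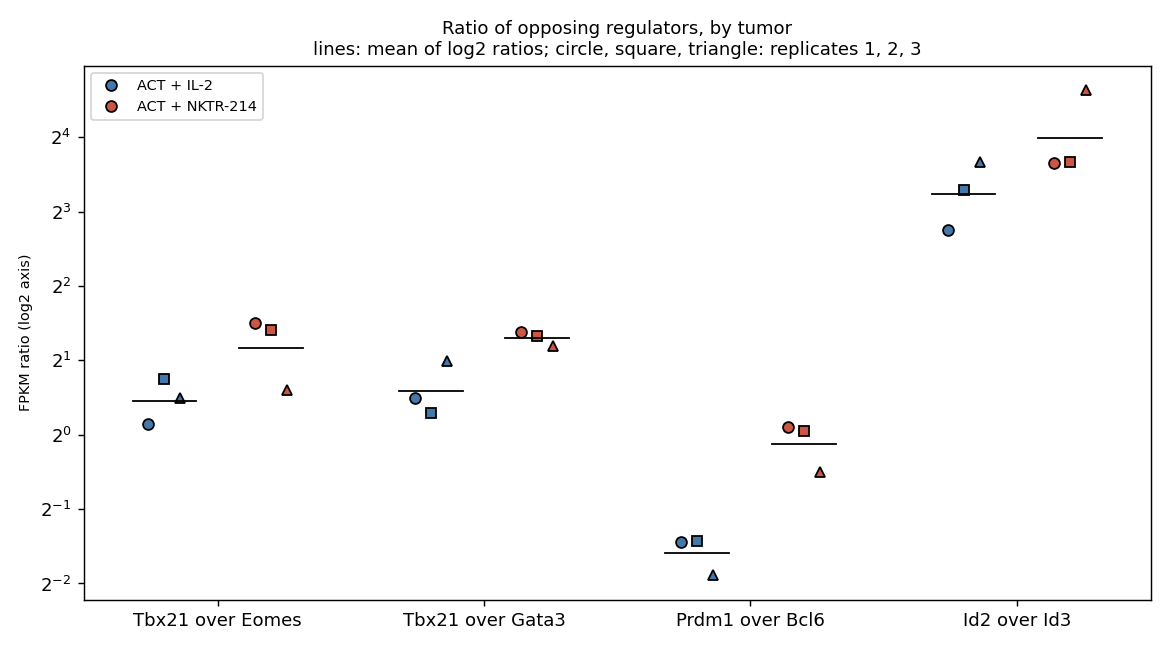
FPKM ratio of 4 pairs of regulators on a log2 axis, 1 point per tumor, with lines for the mean of log2 ratios (3 tumors per group). *Prdm1* over *Bcl6* and *Tbx21* over *Gata3* are apart between the groups, by 1.47 and 0.70 on the log2 scale, and the other pairs overlap.

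Genes linked with these factors, or with the fates they favour, were described by lists. A rise in a list is not a measure of the activity of its factor. Of the T-bet and Eomes program, 13 of 14 tested genes rose, with a median log2 fold change of 2.60. *Gzmb* (granzyme B) rose from 8.11 ± 3.87 to 238 ± 11.5 FPKM, *Prf1* (perforin) from 2.02 ± 1.07 to 43.3 ± 7.54, *Nkg7* (a cytotoxic granule protein) from 7.67 ± 4.01 to 107 ± 27.1 and *Il18rap* (an IL-18 receptor chain) from 0.740 ± 0.247 to 11.1 ± 4.13 (SD, n = 3 each). The tested gene not called was *Cx3cr1*, a chemokine receptor also of macrophages, at 1.36 ± 0.666 and 1.70 ± 0.806 FPKM. Here and for the other lists, the share of all tested genes called higher was 20.7%, and the genes of a list vary together across the same 6 tumors.

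Of the Blimp-1 program, made up mostly of inhibitory receptors, 7 of 8 genes rose, with a median of 2.03. *Ctla4* rose from 0.707 ± 0.331 to 20.2 ± 9.52 FPKM, *Tigit* from 1.42 ± 0.446 to 14.6 ± 6.10, *Lag3* from 2.06 ± 0.678 to 15.5 ± 5.60 and *Havcr2* (TIM-3) from 2.78 ± 0.829 to 14.5 ± 1.57. *Il10* was not called, at 0.364 ± 0.215 and 0.492 ± 0.181 FPKM.

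Of the Bcl6 program, 6 of 10 tested genes rose, with a median of 0.83. *Pdcd1* (PD-1) rose from 1.97 ± 0.994 to 27.6 ± 8.58 FPKM, *Icos* (a costimulatory receptor) from 0.273 ± 0.216 to 4.48 ± 1.57, *Sh2d1a* (the adaptor SAP) from 0.552 ± 0.364 to 5.03 ± 1.79 and *Slamf6* from 0.601 ± 0.342 to 3.14 ± 0.907. These genes are also expressed by activated CD8 T cells. The follicular homing receptor *Cxcr5* was not called, at 0.210 ± 0.0376 and 0.253 ± 0.0288 FPKM, and *Il21* was too low to test.

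Of the GATA3 program, 5 of 8 tested genes rose, with a median of 0.55, all at low levels. *Il13*, a type 2 cytokine, was at 0.0695 FPKM in ACT + IL-2 replicate 1 and listed at 0 in the other ACT + IL-2 tumors, and at 0.806, 0.918 and 1.01 FPKM in ACT + NKTR-214. *Il1rl1* (the IL-33 receptor) rose from 0.360 ± 0.298 to 1.63 ± 0.243 FPKM, *Ccr8* from 0.139 ± 0.0722 to 0.760 ± 0.512 and *Ccr4* from 0.0628 ± 0.0246 to 0.600 ± 0.225, chemokine receptors of type 2 helper and regulatory T cells. No gene of this program reached a mean of 1 FPKM over the 6 tumors.

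Of the naive and memory program, which Id3 and Bcl6 favour, 5 of 6 genes rose, with a median of 1.25. *Il7r* (the IL-7 receptor) rose from 2.64 ± 1.27 to 18.4 ± 3.27 FPKM, *Cd27* (a costimulatory receptor) from 1.42 ± 0.529 to 11.8 ± 5.48 and *Ccr7* (a lymph node homing receptor) from 1.33 ± 0.569 to 4.10 ± 2.29. *S1pr1* was not called.

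**Figure D5:**
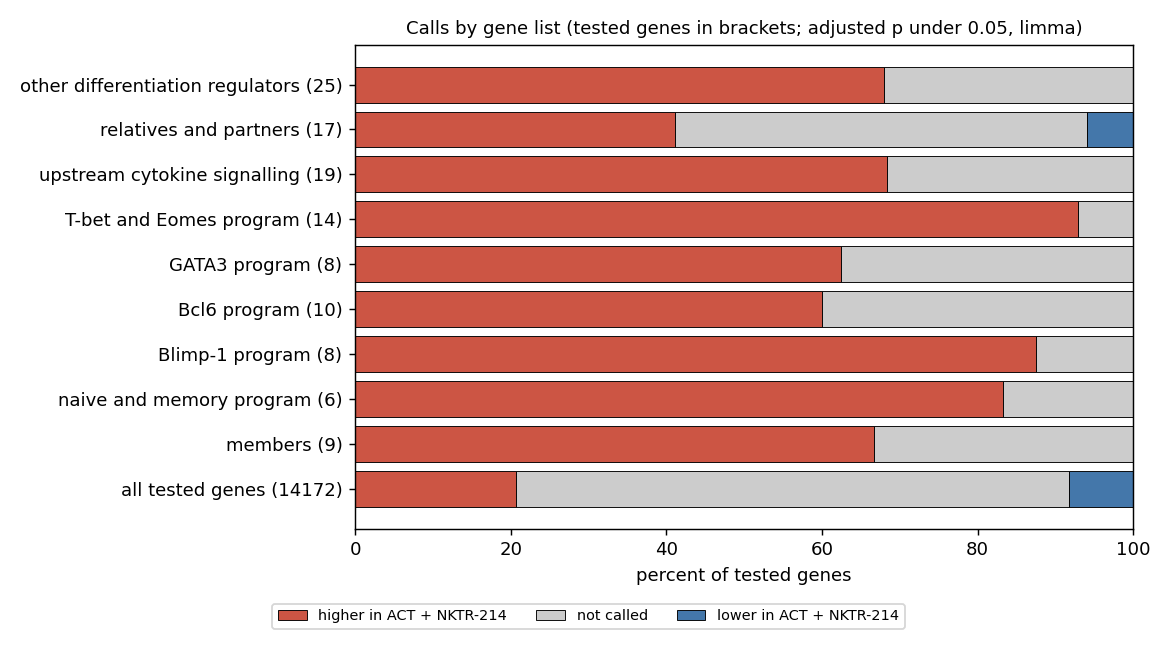
Percent of tested genes called higher, lower or not called in ACT + NKTR-214 against ACT + IL-2 by limma at an adjusted p of 0.05, for each gene list, the 9 regulators (members) and all tested genes, with the number tested in brackets. Higher calls make up 92.9% of the T-bet and Eomes program, 66.7% of the regulators and 20.7% of all tested genes.

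Upstream of the regulators, 13 of 19 tested genes of cytokine signalling rose, with a median of 0.94. *Il2ra* (CD25) rose from 0.655 ± 0.189 to 21.4 ± 2.74 FPKM and *Il2rb* (CD122) from 5.75 ± 2.22 to 88.5 ± 29.7, the α and β chains of the IL-2 receptor. *Ifngr1* (an interferon-γ receptor chain) rose from 12.0 ± 4.01 to 65.7 ± 20.0 FPKM and *Il27ra* (an IL-27 receptor chain) from 0.785 ± 0.373 to 7.52 ± 2.46. *Stat5a* and *Stat5b*, whose proteins carry the IL-2 signal, were not called, at 5.91 ± 0.456 and 6.82 ± 1.05 FPKM for *Stat5a* and 9.73 ± 1.23 and 10.1 ± 1.00 FPKM for *Stat5b*. *Stat3* was not called either, whereas *Stat4*, of the IL-12 pathway, rose from 0.924 ± 0.247 to 7.67 ± 3.12 FPKM and *Stat6*, of the IL-4 pathway, was called higher (adjusted p = 0.0431, limma). These STAT genes, outside the naming rule, are given because the GAS words shown above are of their type.

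Of other differentiation regulators, 17 of 25 tested genes rose and 0 fell in limma (0 at an unadjusted p under 0.05), with a median of 0.84. Without ACT + IL-2 replicate 2, 11 rose. *Zbtb32* (a repressor induced in activated lymphocytes) rose from 0.544 ± 0.0920 to 8.78 ± 2.01 FPKM, *Ikzf1* (Ikaros) from 2.58 ± 1.26 to 17.0 ± 5.89, *Hopx* (a homeodomain cofactor) from 1.02 ± 0.132 to 9.28 ± 2.81 and *Ikzf3* (Aiolos) from 1.04 ± 0.497 to 8.67 ± 3.71. Regulators of other T cell fates that were not called included *Foxp3* of regulatory T cells, at 2.21 ± 0.219 and 2.21 ± 0.221 FPKM. *Tcf7* (TCF-1) was not called either, at 12.1 ± 1.57 and 11.9 ± 3.22 FPKM. Of the same list *Lef1* was called higher, from 0.163 ± 0.0378 to 2.56 ± 0.564 FPKM, as were *Myb*, *Satb1* and *Bach2*. All of these were named after their values were seen.

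Among relatives and partners of the 9 genes, 7 of 17 rose and 1 fell, with a median of 0.26. Without ACT + NKTR-214 replicate 2 there were 4 higher and 0 lower calls, and without ACT + IL-2 replicate 3 the lower call was also lost. *Runx2* (a RUNX paralogue) rose from 0.584 ± 0.178 to 3.12 ± 0.543 FPKM, *Zfpm1* (FOG-1, a GATA cofactor) from 4.62 ± 0.757 to 11.2 ± 2.63, *Zeb1* (the paralogue of *Zeb2*) from 1.26 ± 0.555 to 3.31 ± 0.699 and *Runx1* from 4.21 ± 1.02 to 7.77 ± 1.36. The gene that fell was *Tcf12*, an E protein that Id2 and Id3 bind, from 51.5 ± 6.20 to 36.4 ± 6.43 FPKM (log2 fold change -0.50, SE 0.16, adjusted p = 0.0321, limma). *Id1*, a further Id gene, was not called, at 2.08 ± 0.918 and 2.02 ± 0.548 FPKM.

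Genes with the closest pattern over the 6 tumors were taken by Pearson's r of log2(FPKM + 1) among 11557 genes with a mean of at least 1 FPKM. For genes that differ between the groups, r mostly follows the group difference and the library that all genes share, and 6 points leave many genes near 1. *Tbx21* was closest to *Skap1*, *Abcb9* and *Cdyl2* (r from 0.99955 to 0.99968) and *Eomes* to *Prf1*, *Ahnak* and *Ccl6* (0.99895 to 0.99944). *Gata3* was closest to *Lag3*, *Cd69* and *Cd226* (0.99918 to 0.99948), all genes of activated lymphocytes. *Prdm1* was closest to *Grap2*, *Sla* and *Spint2* (0.99958 to 0.99972), of which *Grap2* and *Sla* encode adaptors of antigen receptor signalling, and *Runx3* to *Glipr2*, *Dok2* and *Qpct* (0.99912 to 0.99970). *Id2* was closest to *Gpm6b*, *Fam117a* and *Stap2* (0.9946 to 0.9963) and *Bcl6* to *St6galnac4*, *Tmed3* and *Cald1* (0.99448 to 0.9947). *Zeb2* was closest to *Phldb3*, *Tcn2* and *Steap2* (0.9857 to 0.9947). *Id3*, which did not follow the groups, was closest to *Sox18*, *Cx3cr1* and *Cxcl9* (0.9725 to 0.9820), genes of endothelium and myeloid cells among others.

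Markers of several cell types moved with the regulators, and their part in the results was not tested. The summed FPKM of 9 T cell markers ranged from 12.0 to 26.6 in ACT + IL-2 and from 130 to 280 in ACT + NKTR-214 (8 of 9 called higher), that of the 2 CD8 genes from 3.31 to 8.21 and from 45.1 to 99.6 (2 of 2), and *Cd4* from 0.212 to 0.758 and from 0.952 to 1.38. Of 6 NK markers 4 were called higher (1.51 to 4.18 and 15.9 to 32.2), but the NK receptor *Ncr1* overlapped, at 0.294 to 0.915 and 0.316 to 1.15 FPKM. All 9 of 9 macrophage markers were called higher (332 to 951 and 1499 to 2721), as were 4 of 6 tested dendritic cell markers (3.80 to 6.25 and 7.10 to 13.9) and 6 of 7 fibroblast markers (220 to 652 and 586 to 1171). Of endothelial markers 1 of 5 was called higher (22.3 to 48.5 and 34.6 to 70.7), of plasma cell markers 1 of 3 tested (7.79 to 11.7 and 12.8 to 18.0, mostly *Sdc1*) and of B cell markers 1 of 3 tested (1.41 to 3.19 and 4.40 to 6.53). The defining B cell genes *Ms4a1* and *Pax5* did not exceed 0.0815 FPKM in any tumor. Keratinocyte markers summed to 0.462 to 1.01 and 0.3996 to 1.68 FPKM, and none of the 3 tested was called by limma, *Krt5* having the smallest adjusted p, 0.374. Melanocyte markers, the sign of the tumor cells, were the reverse, with 5 of 7 called lower and sums of 5413 to 6933 in ACT + IL-2 and 2664 to 3763 in ACT + NKTR-214.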

How the data were processed

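RNA from 6 whole tumors was sequenced by the authors as 50-base single-end reads, mapped to GRCm38 with HISAT2 2.0.4 (per the submitters' processing notes) and counted per gene with HTSeq. The deposited values are FPKM on the linear scale, 1 column per tumor, and the gene annotation is not given in the sources used here. FPKM corrects for exon length and mapped reads, so a large change in a few abundant genes shifts all others. Replicate numbers stand for different mice, 1 tumor each.

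Values were taken as log2(FPKM + 1), which understates the fold change of genes below about 1 FPKM. For genes with a mean of at least 0.1 FPKM, limma (3.58.1, under R 4.3.3) tested the groups (eBayes with trend, Benjamini-Hochberg over 14172 genes, threshold 0.05). Fold changes are ACT + NKTR-214 minus ACT + IL-2. For ratios, exact two-sided permutation tests were run over tumors. The fit was tested on simulated data. Gene positions and shared exon bases came from GENCODE vM21 (GRCm38), promoter windows from RefSeq (GRCm38.p6), where all 9 genes matched. Other steps used Python 3.11.15 with numpy 2.4.6, pandas 2.3.3 and, for plots, matplotlib 3.10.9.

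The text names the 9 regulators, up to 4 tested genes per list with the largest absolute log2 fold change, and the 3 genes most alike each regulator. Any further gene was picked with its values in view. Values of 1 gene that this rule names are not reported here. The regulators, the 8 gene lists and the 12 marker lists were chosen with earlier results of these data known. *Zfp683* of the other differentiation regulators was not analysed here. Same-numbered tumors of the groups deviated from their group means with correlations of -0.21, -0.07 and 0.40, so the numbers were not taken to pair tumors.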

Additional observations from a re-analysis of the deposited data

How the results depend on the processing

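In 13 of 14 alternative fits 6 regulators were called higher and in all 14 fits 0 lower. With an ordinary variance per gene, which leaves few degrees of freedom, 1 regulator was called (*Eomes*). By the t-test with that variance, *Tbx21*, *Runx3*, *Gata3*, *Prdm1* and *Id2* had adjusted p of 0.0575, 0.0558, 0.0604, 0.0618 and 0.0865. Higher calls fell to 2 for other differentiation regulators, 2 for upstream cytokine signalling, 2 for the T-bet and Eomes program and 1 for the GATA3 program. They fell to 0 for relatives and partners (also 0 lower), the Bcl6, the Blimp-1 and the naive and memory programs. Over all tested genes 101 were called higher in that fit, against 2940. With a minimum mean of 1 FPKM no gene of the GATA3 program was left to test. Quantile normalization gave 2 lower calls among other differentiation regulators and 3 among relatives and partners, 75th percentile scaling gave 2 and no minimum gave 0 among the latter. Of the genes called, 71.5% were higher, but 37.3% after quantile normalization (2691 higher, 4525 lower) and 49.0% after 75th percentile scaling (3364 higher, 3497 lower), and quantile normalization moved the median change over the tested genes by -0.14 on the log2 scale. With 1 tumor left out, higher calls ranged from 11 to 19 for other differentiation regulators (11 without ACT + IL-2 replicate 2) and from 4 to 8 for relatives and partners (4 without ACT + NKTR-214 replicate 2), and lower calls of the latter from 0 to 1. The log2 fold change of *Id3* ranged from -0.24 to 0.39 with 1 tumor left out, and became -0.053 and -0.14 under 75th percentile scaling and quantile normalization and -0.06, -0.16, -0.08 and -0.24 without ACT + IL-2 replicate 2, ACT + IL-2 replicate 3, ACT + NKTR-214 replicate 1 and ACT + NKTR-214 replicate 2. The cause was not tested.

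The replicate number as a block kept 6 regulators called higher and changed no count of a list by over 1.5 times. For ratios, the mean of differences within same-numbered tumors equals the difference of group means by arithmetic, so only the p could change. For *Tbx21* against CD3 genes and for *Prdm1* over *Bcl6* the exact sign-flip p was 0.25, the smallest that 3 pairs allow. Every ratio kept its direction under every other alternative run, *Tbx21* against CD3 genes ranging from -0.73 to -0.31.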
